A study of Mus musculus with 2 samples.

Results

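The 36 genes described here encode the mTORC1 kinase and the proteins that tell it whether amino acids are at hand. They were chosen by name, as the rows of the gene count table whose symbol equals 1 of 36 listed members, and all 36 were found among the 24532 genes of the table. The cells were cardiac myofibroblasts, cells that lay down scar matrix after heart injury, isolated from C57BL/6 mice 3 days after myocardial infarction. They were transfected with a control siRNA (siControl) or an siRNA against Bcat1 (siBcat1), each at 12.5 nM with the same lipid reagent, and were cultured for 72 hours before RNA was taken for sequencing of messenger RNA. Each group had 1 library and 1 siRNA, and the number of animals is not given in the labels. There are therefore no replicates, no test and no p-value, and every difference given is a difference between 2 libraries.

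mTORC1 is a protein kinase complex on the lysosome surface that drives protein synthesis and holds back autophagy when nutrients are plentiful. Amino acids act through the Rag GTPases, which are anchored to the lysosome by the Ragulator complex and which bring mTORC1 to the membrane, where the GTPase Rheb switches it on. GATOR1 turns the Rags off, GATOR2 restrains GATOR1, and the TSC complex turns Rheb off. Bcat1 encodes the cytosolic aminotransferase that takes the amino group from leucine, isoleucine and valine, and leucine is the amino acid best known for activating this pathway.

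The libraries held 127309329 counts for siControl and 104581819 for siBcat1. The siRNA target, Bcat1, had 8891 counts with the control siRNA and 99 with siBcat1, which is a log2 fold of -6.11 [-6.41 to -5.83]. The log2 fold is that of siBcat1 over siControl in counts scaled for library size, and brackets hold the exact 95% interval of counting error, which contains no spread between cultures. PCR copies are not independent molecules, so these intervals are too narrow to that extent. A gene was called measured at a mean over both libraries of at least 5 CPM (counts relative to scaled library size), which 9935 genes reached, and a difference of at least 1.5-fold was counted as higher or lower. Fold differences followed transcript length across the measured genes, with a Spearman correlation of -0.65 over 9886 genes, which share both libraries. For that reason each fold is also given length-adjusted, that is, after a smooth curve of log2 fold on annotated length over all measured genes was subtracted. All 8 fibroblast and 4 myofibroblast markers were measured, and their summed TPM was 10289 in siControl and 3392 in siBcat1 for the fibroblast markers (mostly collagens) and 5204 and 3909.8 for the myofibroblast markers. Of other cell types, the macrophage markers Ptprc and Adgre1 and the cardiomyocyte markers Myh6 and Ryr2 were at 0 in both libraries. The summed TPM of the 6 macrophage markers was 14.9 in siControl and 35.1 in siBcat1 (mostly Lyz2, with 10.7 and 29.5, while Csf1r had 370 and 272 counts), that of the 5 cardiomyocyte markers 80.8 and 12.7 (nearly all Tnnt2), and that of the 3 epicardial markers 21.2 and 4.18. Their part in the values below was not tested, and in such bulk samples fewer cells of a type and less RNA per cell cannot be told apart.

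Of the 36 members, 34 were measured. Lower with siBcat1 were 15 of the 34, against 25.6% of all measured genes, and higher were 2, against 17.6%. The lower genes included the kinase Mtor, its partner Rptor, both large TSC subunits, 2 of 3 GATOR1 subunits and the 4 GATOR2 subunits on the list, whereas the 2 higher genes, Lamtor2 and Lamtor4, belong to Ragulator. The median log2 fold of the 34 members was -0.40, beside -0.06 over all measured genes. Length-adjusted, 9 members were lower and 1 was higher, against 14.3% and 12.8% of measured genes, and the members' median was -0.18, beside 0.00 over all. Called in scaled counts but within 1.5-fold length-adjusted were Mtor, Rictor, Tsc1, Mios, Wdr59, Fnip1, Rps6kb2, Lamtor2 and Lamtor4. At the 2-fold level 9 members were lower and 1 was higher in scaled counts, against 13.0% and 5.58% of measured genes. Rragb and Rragd lay under the minimum and are described with their counts.

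Levels between genes were compared in TPM, the authors' relative abundance of transcripts, which is scaled for length. Eif4ebp1 was the most abundant member in both libraries, with 313 TPM in siControl and 291 in siBcat1. Next came Lamtor1 with 282 and 192 TPM. In siControl 11 members had at least 50 TPM: the 5 Ragulator subunits, Rraga, Rragc, Rheb, Akt1s1 and both Eif4ebp genes. The kinase gene Mtor had 7.99 and 2.32 TPM, Slc38a9 had 1.18 and 0.848, and Rragb was last with 0.324 and 0. In TPM, 33 of the 36 members, Rragb and Rragd included, were lower with siBcat1 by any amount and 3 were higher. The share of all genes lower by any amount in TPM was not computed. On the log2(TPM + 1) scale the median over all measured genes was also below 0, at -0.52, beside -0.74 for the 34 members that passed the minimum level set above.

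**Figure D1:**
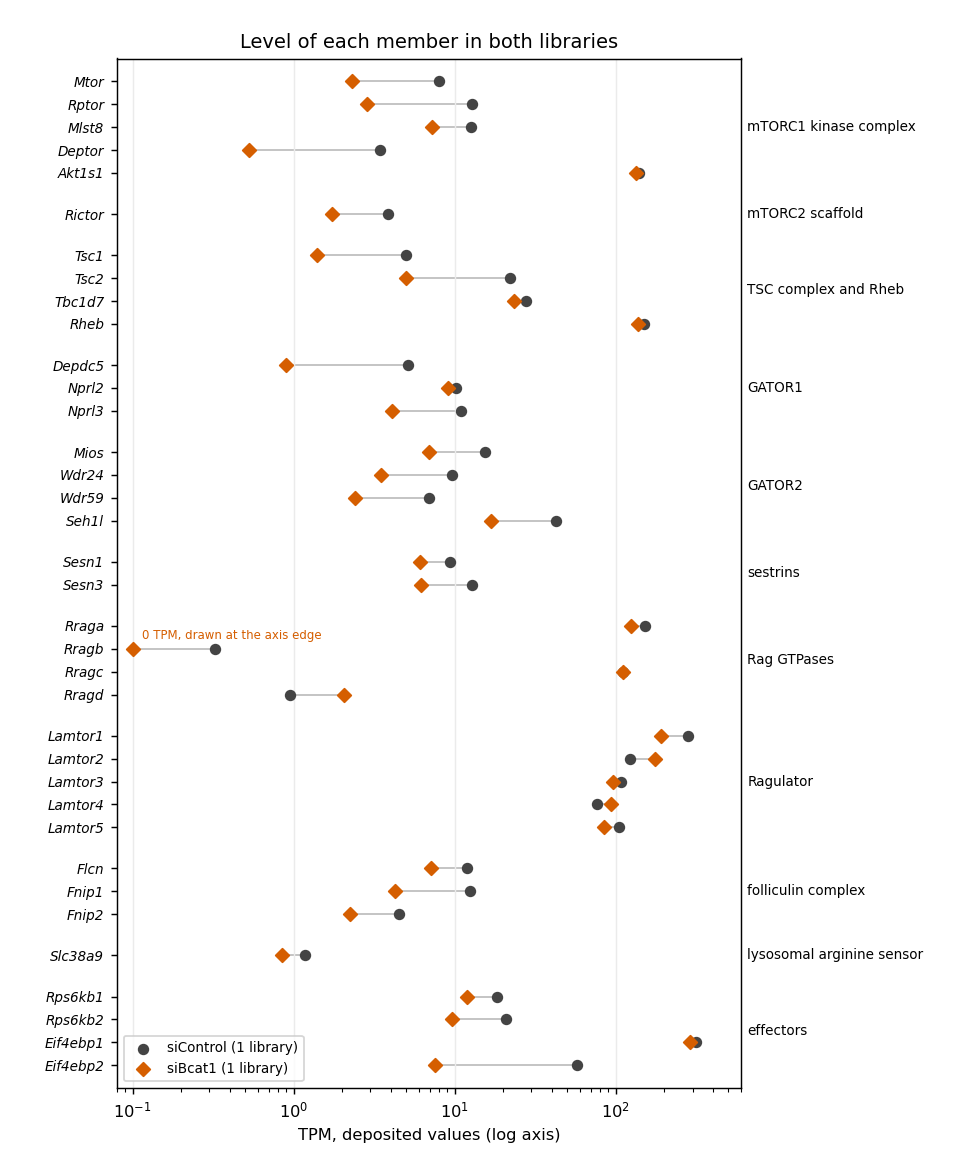
Deposited TPM of each member (log axis) in the siControl library (circles) and the siBcat1 library (diamonds), ordered by complex, with 1 library a group and no error bars. Ragulator, Rraga, Rragc, Rheb, Akt1s1 and Eif4ebp1 lie at 76.8 TPM or more in both libraries, while Deptor, Depdc5 and Eif4ebp2 show wide gaps to the left and Rragd lies to the right with siBcat1.

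Within the kinase complex, the catalytic and scaffold genes were lower and a small inhibitor was not. Mtor (chromosome 4, 148448611 to 148557683, plus strand, GRCm38), the kinase, had 4349 counts in siControl and 1380 in siBcat1. Its log2 fold was -1.28 [-1.37 to -1.19], and -0.25 length-adjusted, so that it was within 1.5-fold of other genes of its length. Rptor (chromosome 11, 119602905 to 119899576, plus strand), which encodes the scaffold that presents substrates to the kinase, had 5663 and 1395 counts. It was 3.13-fold lower, with a log2 fold of -1.65 [-1.73 to -1.56], and remained lower length-adjusted with -0.83. Deptor (chromosome 15, 55112317 to 55259271, plus strand), an inhibitor bound to the kinase, had 1861 and 315 counts. The difference was 4.55-fold, a log2 fold of -2.19 [-2.36 to -2.01], with -1.47 length-adjusted, and 158 of the 9935 measured genes had a lower fold. Akt1s1, which encodes another inhibitory subunit, differed in the other direction, with 14691 and 15249 counts and a log2 fold of 0.43 [0.40 to 0.46]. That value was -0.05 both length-adjusted and in log2(TPM + 1), so its sign depended on the scale. Mlst8, the small subunit shared with the second mTOR complex, had 2670 and 1650 counts and a log2 fold of -0.32 [-0.41 to -0.23]; 29.7% of its exonic bases overlap Bricd5 on the other strand, which had 3 and 0 counts.

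Rictor is the scaffold of mTORC2, the complex that shares the kinase but phosphorylates AKT. It had 2277 and 1117 counts and a log2 fold of -0.65 [-0.76 to -0.55]. Its transcript of 9312 bases is the longest of the members, and length-adjusted the value was 0.45, with the opposite sign. Rptor and Rictor differed by -0.99 in log2 fold [-1.13 to -0.86], and by -1.28 length-adjusted. In TPM the ratio of Rptor to Rictor was 3.30 in siControl and 1.66 in siBcat1.

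Of the TSC complex, which turns Rheb off, the 2 large subunits were lower and the small one was not. Tsc2 (chromosome 17, 24595816 to 24632630, minus strand), the subunit that acts on Rheb, had 8714 and 2153 counts and a log2 fold of -1.64 [-1.71 to -1.57] and -0.94 length-adjusted. Tsc1, which stabilises Tsc2, had 2444 and 743 counts and a log2 fold of -1.34 [-1.46 to -1.22] and -0.40 length-adjusted. Tbc1d7, the third subunit, had 2223 and 2018 counts and 0.24 [0.15 to 0.32]. Rheb, the GTPase that activates the kinase, had 14345 and 14503 counts and 0.39 [0.36 to 0.42]. Both were near 0 or below it on other scales, with -0.31 and 0.11 length-adjusted and -0.25 and -0.11 in log2(TPM + 1). Exons of Tsc2 overlap those of Pkd1 on the other strand over 10.9% of their bases, and Pkd1 was lower as well, with a log2 fold of -1.95. Whether counting used strand is not given in the sources used here.

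GATOR1, the complex that turns the Rags off when amino acids are short, was divided. Depdc5 (chromosome 5, 32863701 to 32994236, plus strand), its largest subunit, had 2146 and 489 counts, a 3.38-fold difference with a log2 fold of -1.76 [-1.90 to -1.62] and -0.79 length-adjusted. Its counts and TPM imply a mean transcript of 6583 bases in siControl and 7887 in siBcat1. Nprl3 had 2009 and 814 counts and a log2 fold of -0.93 [-1.05 to -0.81], with -0.85 length-adjusted. Nprl2, which pairs with Nprl3, had nearly equal counts of 941 and 922, a log2 fold of 0.35 [0.21 to 0.48] and -0.10 length-adjusted. The Nprl3 value needs care, because 23.3% of its exonic bases overlap Mpg on the other strand. Mpg had 2715 and 2965 counts and a log2 fold of 0.50, and the sum of both genes had 0.05. That sum adds all counts of both genes, so it cannot show how many Nprl3 counts came from the overlap.

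The 4 GATOR2 subunits among the members were lower, by amounts close to each other, except that Mios was within 1.5-fold (-0.52) when counts were scaled by upper-quartile factors. Wdr59 had a log2 fold of -1.01 [-1.12 to -0.89] from 2249 and 863 counts. Wdr24, a subunit with WD repeats, had -0.97 [-1.10 to -0.85] from 1902 and 746 counts. Seh1l, which is also a subunit of the nuclear pore, had -0.91 [-0.96 to -0.85] from 9222 and 3795 counts. Mios had the smallest difference, -0.65 [-0.73 to -0.56] from 3628 and 1786 counts. Length-adjusted, the group remained below 0 throughout, with -0.91 for Seh1l, -0.84 for Wdr24, -0.48 for Wdr59 and -0.36 for Mios, of which Seh1l and Wdr24 were past 1.5-fold. In TPM these 4 subunits summed to 74.7 in siControl and 29.6 in siBcat1. Sec13, the fifth subunit of GATOR2 and also a coat protein of the secretory pathway, is not among the 36 members and was within 1.5-fold: it had 33783 and 28311 counts and a log2 fold of 0.12 [0.10 to 0.14], with -0.37 length-adjusted and -0.38 in log2(TPM + 1). At 409.9 and 314 TPM it was far more abundant than the other GATOR2 genes.

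The sestrins bind GATOR2, and the family holds a leucine sensor. Sesn1 had 1667 and 1304 counts and a log2 fold of 0.02 [-0.08 to 0.13]. Sesn3 had 1751 and 930 counts and -0.54 [-0.65 to -0.42], just under the 1.5-fold limit of 0.585 that Rps6kb2 (-0.62), Mios and Rictor passed by little. The length adjustment of Sesn3 has no firm sign: it was 0.55 with the annotated length of 9125 bases and -0.69 with the implied length, the 2159 bases that follow from the ratio of its counts to its TPM.

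**Figure D2:**
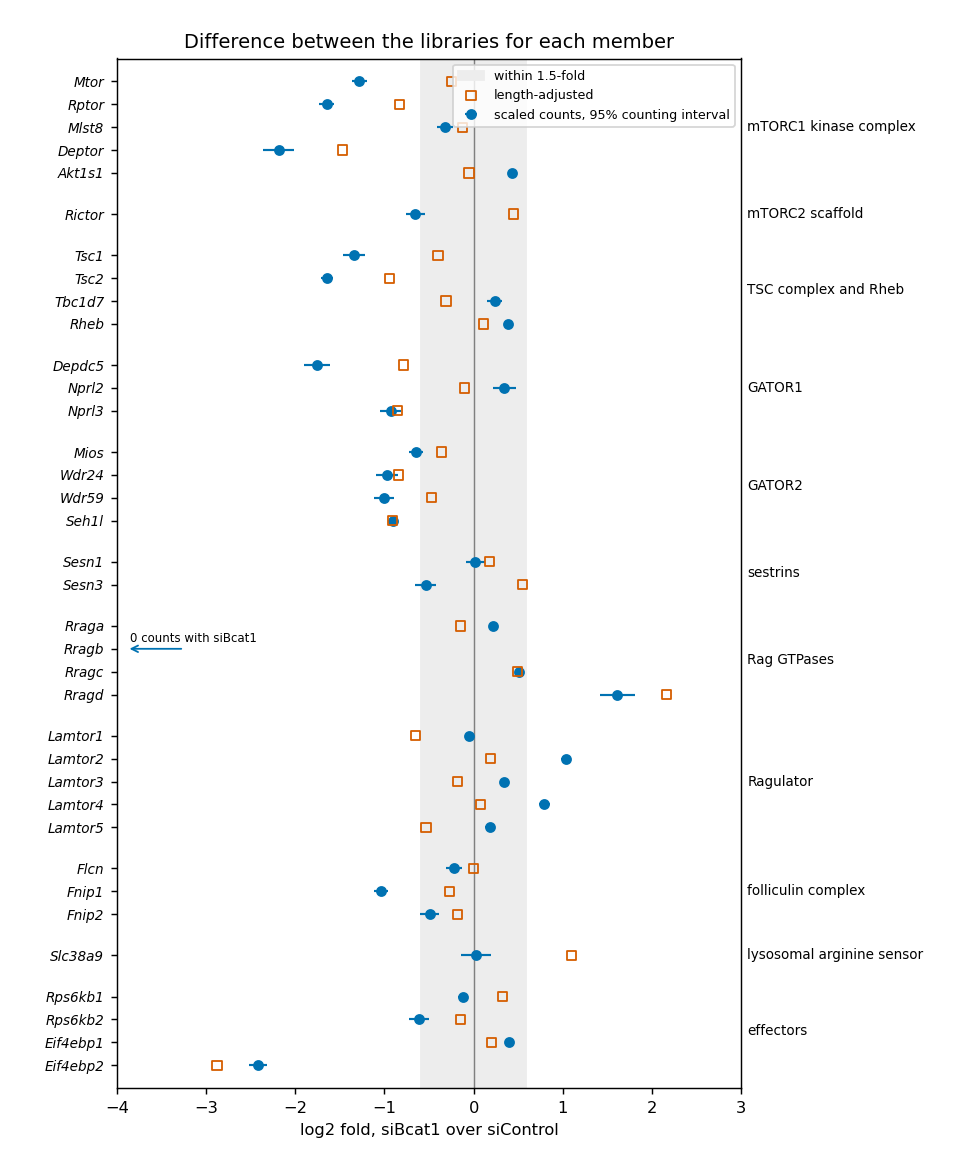
Log2 fold of siBcat1 over siControl for each member, from scaled counts with 95% intervals of counting error (circles) and length-adjusted (open squares), with the range within 1.5-fold shaded. The 4 GATOR2 genes on the list lie between -1.01 and -0.65, Eif4ebp2 and Deptor lie farthest left among the measured members, and Rragd lies farthest right with 1.61.

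The Rag GTPases work as pairs of an A or B form with a C or D form, and here the 2 abundant forms differed by less than 1.5-fold while the 2 scarce forms differed by more. Rraga had 15463 and 13840 counts and a log2 fold of 0.22 [0.18 to 0.25]. Rragc had 18279 and 19985 counts and 0.50 [0.48 to 0.53], with 0.49 length-adjusted and 111 TPM in both libraries. Rragd (chromosome 4, 32983037 to 33022180, plus strand), the close relative of Rragc, had 306 and 721 counts, or 2.33 and 7.12 CPM, just under the minimum with a mean of 4.72 CPM. It was 3.06-fold higher with siBcat1, a log2 fold of 1.61 [1.42 to 1.81], the highest of all members, and 0.956 and 2.06 TPM placed it on the higher side in TPM too. Read at its length of 5008 bases, the length-adjusted value was 2.16, which 34 of the measured genes exceeded. Rragc and Rragd differed by -1.11 in log2 fold [-1.31 to -0.91], although Rragc still made up 99.1% of their summed TPM in siControl and 98.2% in siBcat1. Rragb, the close relative of Rraga, had 47 counts in siControl and 0 in siBcat1. Against a floor of 3 counts in siBcat1, it was at least 12.1-fold lower in scaled counts; the exact interval of counting error is wider and reaches up to a log2 fold of -3.24. No stretch of 50 bases was shared exactly between transcripts of Rraga and Rragb, or of Rragc and Rragd.

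Ragulator is the pentamer that tethers the Rags to the lysosome, and its short transcripts were the only measured members called higher. Lamtor2 had 4428 and 6988 counts and a log2 fold of 1.03 [0.98 to 1.09]. Lamtor4 had 4266 and 5707 counts and 0.80 [0.74 to 0.85]. Lamtor3 had 8645 and 8423 counts and 0.34 [0.29 to 0.38], and Lamtor5 had 5884 and 5155 counts and 0.18 [0.13 to 0.24]. Lamtor1, the subunit whose lipid anchor holds the complex on the membrane, had 21191 and 15762 counts and -0.05 [-0.08 to -0.02]. Lamtor2 and Lamtor4 were the only subunits higher in TPM as well (122 and 177 TPM for Lamtor2, 76.8 and 93.9 for Lamtor4). Length-adjusted they had 0.19 and 0.08, no subunit was called higher and Lamtor1 was lower with -0.65. The transcripts have a median length of 881 bases, and the 5 subunits summed to 694 TPM in siControl and 643 in siBcat1.

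The promoters of several of these genes hold the word CACGTG, the core of the site bound by TFEB and TFE3, the lysosomal transcription factors that mTORC1 keeps out of the nucleus. Other E-box factors such as MYC and USF bind the same letters. In RefSeq promoters of GRCm38 (300 bases, of which 250 lie before the start), 30 members had a promoter and 7 of them held CACGTG: Rragc, Rheb, Lamtor1, Lamtor4, Fnip1, Tbc1d7 and Rragb. That is 23.3% of these members, beside 12.4% of the 7746 measured genes with a promoter and 7.15% of all 32851 promoters. The word is its own reverse complement, so both strands are covered, and 6 of the 7 (all but Tbc1d7), so 6 of the 30, held the longer form TCACGTG on either strand, beside 7.59% of the measured genes with a promoter and 3.77% of all promoters. The stretches of 40 bases around the word are shown for 5 members that span the range of folds, 5′ to 3′ on the strand of the gene, with CACGTG in capitals.
Rragc (chr4:123917304-123917343, plus strand, 112 bases before the start): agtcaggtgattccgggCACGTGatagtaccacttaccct
Rheb (chr5:24842435-24842474, minus strand, 96 bases before the start): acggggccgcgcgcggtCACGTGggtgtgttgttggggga
Lamtor4 (chr5:138255361-138255400, plus strand, copies 120 and 104 bases before the start): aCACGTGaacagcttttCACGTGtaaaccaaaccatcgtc
Lamtor1 (chr7:101905752-101905791, plus strand, 68 bases before the start): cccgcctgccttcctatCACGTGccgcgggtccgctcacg
Fnip1 (chr11:54438087-54438126, plus strand, 75 bases before the start): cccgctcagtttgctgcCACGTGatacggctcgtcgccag
The Lamtor4 stretch holds 2 copies of the word. The genes that hold it did not share a direction: Lamtor4 had a log2 fold of 0.80, Rragc 0.50, Rheb 0.39, Tbc1d7 0.24, Lamtor1 -0.05 and Fnip1 -1.04, and Rragb was at 0 counts with siBcat1. A match of letters is a description and does not show that a factor binds there.

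The folliculin complex acts on the C and D forms of the Rags and through them on TFEB and TFE3. Its partner gene Fnip1 had 4978 and 1867 counts and a log2 fold of -1.04 [-1.12 to -0.96] and -0.27 length-adjusted. Fnip2 had 2018 and 1108 counts and -0.49 [-0.60 to -0.38]; length-adjusted it was -0.18 with the annotated length and 0.37 with the implied length. Flcn, folliculin itself, had 2585 and 1710 counts, -0.22 [-0.31 to -0.13] and 0.00 length-adjusted. All 3 were thus below 0 in scaled counts and none was past 1.5-fold length-adjusted. Slc38a9, the transporter that senses arginine inside the lysosome, had 667 and 525 counts and a log2 fold of 0.03 [-0.14 to 0.20]. With a transcript of 8910 bases it was the only measured member called higher length-adjusted, at 1.09, and its mean of 5.13 CPM was just over the minimum.

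Among the effectors of mTORC1, Eif4ebp2 showed the largest difference of any measured member. Eif4ebp1 and Eif4ebp2 encode repressors that bind the cap-binding protein eIF4E and release it when mTORC1 phosphorylates them. Eif4ebp2 (chromosome 10, 61428491 to 61452661, minus strand) had 6476 counts in siControl and 933 in siBcat1, or 57.2 and 7.53 TPM. It was 5.35-fold lower, with a log2 fold of -2.42 [-2.52 to -2.32], and 108 of the measured genes were lower still. Its transcript of 1422 bases is short, among genes whose median log2 fold was 0.45, and length-adjusted the value was -2.88, with 21 genes lower. Eif4ebp1 had 19477 and 19760 counts and a log2 fold of 0.40 [0.37 to 0.43], which was 0.20 with the annotated length removed, -0.26 with the implied length removed and -0.11 in log2(TPM + 1). The 2 genes differed by 2.82 in log2 fold [2.71 to 2.92], and the share of Eif4ebp1 in their summed TPM was 84.6% in siControl and 97.5% in siBcat1. Their transcripts shared no stretch of 50 bases.

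The ribosomal S6 kinase genes, whose products are the other main substrates, differed less. Rps6kb1 had 6247 and 4450 counts and a log2 fold of -0.11 [-0.17 to -0.06]. Rps6kb2 had 1973 and 992 counts and -0.62 [-0.73 to -0.51]. Length-adjusted, Rps6kb2 had -0.14 with the annotated length of 4586 bases and -1.03 with the implied length of 1491 bases; the size of its difference depends on the length used. Of its exonic bases, 27.7% overlap other genes on the opposite strand, mainly Ptprcap, which had 0 and 7 counts.

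Transcript length ordered the members as it ordered all genes. Over the 34 measured members the Spearman correlation of log2 fold and annotated length was -0.66, and 0.02 after adjustment; the members share the 2 libraries, and length also went with level, with a correlation of -0.74 between length and TPM in siControl. When the measured genes were parted into 3 classes of about equal size by length, the long class (at least 3857 bases) held 13 members, of which 10 were lower, against 54.3% of its genes. The middle class held 9 members, of which 4 were lower (Nprl3, Mios, Wdr24 and Seh1l), against 18.8%. The short class (up to 2244 bases) held 12 members, of which 2 were higher, against 38.5%, and 1 was lower, Eif4ebp2, against 3.82%. The members' medians were below those of all genes in each class, with -1.04 beside -0.65 in the long, -0.49 beside -0.09 in the middle and 0.34 beside 0.45 in the short class.

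**Figure D3:**
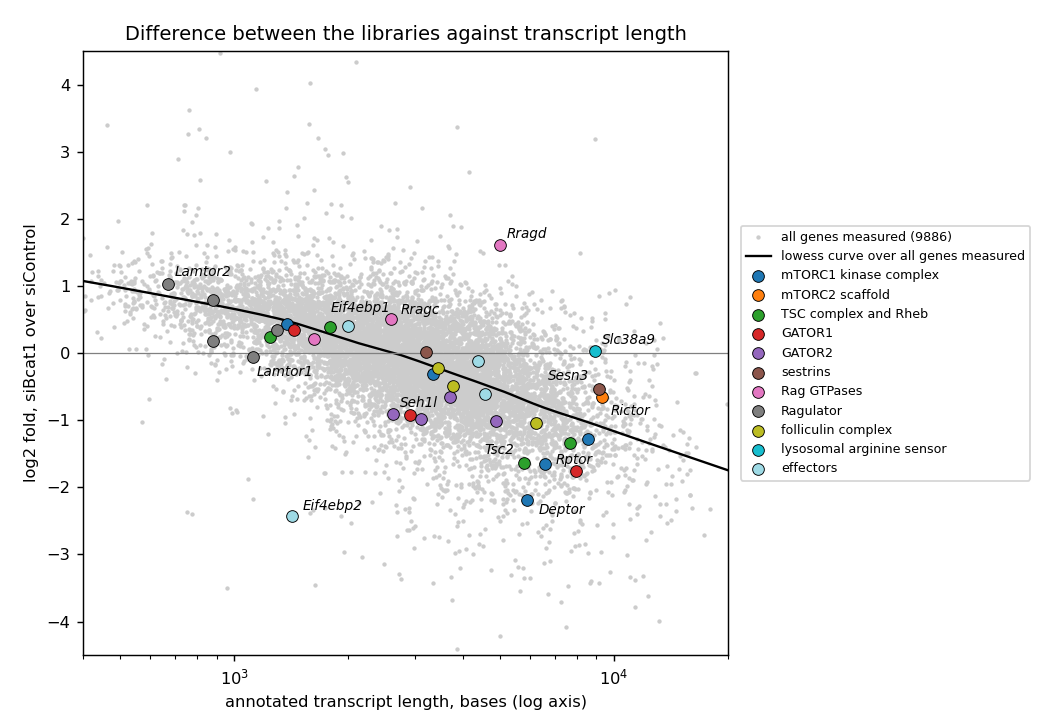
Log2 fold of siBcat1 over siControl against annotated transcript length (log axis) for 9886 measured genes (grey, of which 27 lie outside the axes) and for the members (coloured by complex), with the smooth curve used for adjustment. The members follow the downward curve from Lamtor2 at 1.03 to Mtor at -1.28, with Eif4ebp2 and Deptor far under it and Slc38a9 and Rragd above it.

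The members at least 1.5-fold lower both in scaled counts and in 9 other settings were 8: Rptor, Deptor, Tsc2, Depdc5, Nprl3, Wdr24, Seh1l and Eif4ebp2. These 9 settings changed the scaling, used TPM or removed trends, at this minimum or none, and kept the 1.5-fold level. At the 2-fold level in scaled counts, Nprl3 (-0.93), Wdr24 (-0.97) and Seh1l (-0.91) were not lower. No measured member was called higher in all 9 settings, as Lamtor2 and Lamtor4 were within 1.5-fold length-adjusted and in TPM. All settings use the same 2 libraries, so they are not independent of each other. The share of all measured genes lower in every setting was not computed, so the count of 8 has no background beside it. No setting deals with the overlap of Nprl3 with Mpg on the other strand. The sum of those genes had a log2 fold of 0.05, but it adds all counts of both and cannot test the Nprl3 call.

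Other genes of the pathway were read from 6 lists that hold none of the 36 members. Of 13 measured amino acid sensors and GATOR partners, 6 were lower and 3 higher, with a median of -0.26 (length-adjusted -0.37, with 5 lower and 1 higher). Over all measured genes 25.6% were lower and 17.6% higher, and length-adjusted 14.3% and 12.8%. In log2(TPM + 1) 8 of the 13 were lower and 0 higher, against 46.5% and 3.56% of measured genes. The lowest in scaled counts were Slc36a4, of a family of proton-coupled amino acid transporters, with 2712 and 240 counts and -3.12 [-3.32 to -2.93], and Gatsl2, a relative of the arginine sensor, with -1.75 [-1.91 to -1.59]. Length-adjusted these had -2.31 and -0.83. The 3 higher genes were Gatsl3, the arginine sensor itself, with 0.76, Sar1b with 0.68 and Bmt2 with 0.65. Length-adjusted those had 0.38, 0.12 and 1.04, so only Bmt2 stayed past 1.5-fold. Sesn2, a leucine-binding sestrin, which was picked out after its values were seen, had 4513 and 1445 counts and -1.27 [-1.35 to -1.18], with -1.03 length-adjusted. Of 5 measured subunits of mTORC2 and of the chaperone complex that assembles mTOR, 1 was lower, Tti1, a part of that chaperone, with -1.32 [-1.44 to -1.20]. The next largest difference was Telo2 with -0.45. In log2(TPM + 1) 3 of these 5 were lower.

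Upstream kinases and stress inputs had 6 of 16 measured genes lower and 1 higher, with a median of -0.37 and a length-adjusted median of 0.00 (4 lower, 4 higher). The shares over all measured genes were 25.6% lower and 17.6% higher, and length-adjusted 14.3% and 12.8%. In log2(TPM + 1) 10 of the 16 were lower and 0 higher, against 46.5% and 3.56% of measured genes. Pik3r1, which encodes the regulatory subunit of PI3-kinase, had 7272 and 301 counts and a log2 fold of -4.22 [-4.39 to -4.05], lower than any of the 36 members with counts in both libraries. Irs2, an adaptor of the insulin receptor, had 1574 and 191 counts and -2.67 [-2.89 to -2.45]. Both remained far below 0 length-adjusted, with -3.67 and -1.89.

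The proton pump of the lysosome, which Ragulator binds, had 8 of 16 subunit and accessory genes higher and 1 lower in scaled counts. Their median was 0.57, and in log2(TPM + 1) 1 was higher and 4 were lower. Over all measured genes 17.6% were higher and 25.6% lower in scaled counts. In log2(TPM + 1) these shares were 3.56% and 46.5%, and with upper-quartile factors 23.3% and 20.7%. Atp6v1d had 1.12 [1.08 to 1.16] and Atp6v1g1 had 1.04 [1.01 to 1.07]. These are short transcripts too, with a median of 2001 bases, and length-adjusted the median was 0.04 with 1 gene higher. Other substrates and translation effectors had 3 of 15 higher and 4 lower (2 and 7 in log2(TPM + 1), 3 and 0 with upper-quartile factors), with a median of 0.01; Pdcd4, an inhibitor of translation initiation, had 1.35 [1.28 to 1.42] and Rps6, the ribosomal protein that the S6 kinases phosphorylate, had 1.22 [1.21 to 1.23] (length-adjusted 1.28 and 0.51). Of 14 measured target genes of TFEB and TFE3, 5 were higher and 1 lower in scaled counts (1 and 4 in log2(TPM + 1)), with a median of 0.27 and a length-adjusted median of 0.19 (3 higher, 1 lower). Atp6v1h, with 0.65, is on both this list and that of the proton pump and was counted as higher in each. Gpnmb, a lysosomal membrane glycoprotein gene, had 1998 and 6397 counts and 2.05 [1.98 to 2.13], and Gla, the lysosomal galactosidase gene, had 1.11 [1.04 to 1.17]. Length-adjusted these had 2.34 and 1.26. The autophagy receptor gene Sqstm1 and the lysosomal genes Lamp1 and Ctsd, picked out after their values were seen, had 0.38, 0.24 and 0.27. Length-adjusted those had 0.30, 0.13 and 0.12, and in log2(TPM + 1) -0.13, -0.26 and -0.23. In scaled counts 10 of the 14 targets were above 0, beside 4648 of the 9935 measured genes. The 4 targets below 0 were Uvrag with -1.08, Wipi1 with -0.52, Mcoln1 with -0.34 and Gabarapl1 with -0.28. Scaled by library totals, 2 targets were higher and 2 lower, against 14.1% and 29.3% of measured genes, so these counts depend on the scale.

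**Figure D4:**
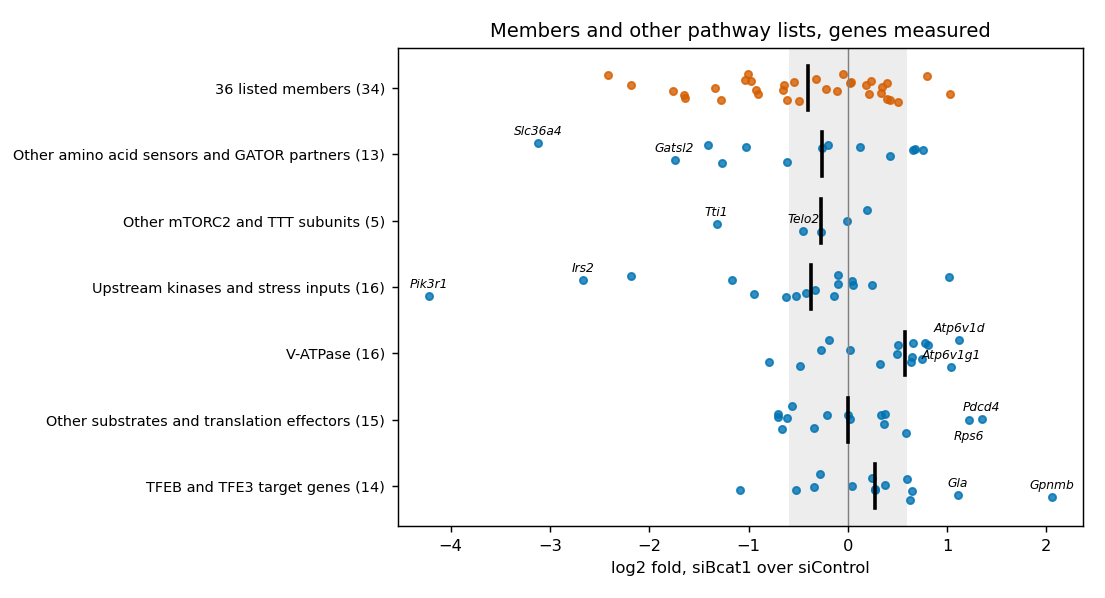
Log2 fold of siBcat1 over siControl for the measured members (top row) and for the measured genes of 6 other pathway lists, 1 point a gene, with the median as a bar, the range within 1.5-fold shaded and the 2 genes of largest difference in each list named. The medians run from -0.40 for the members to 0.57 for the V-ATPase, and Pik3r1 lies farthest left at -4.22.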

How the data were processed

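RNA sequencing data of 2 libraries were used, grouped by the treatment label. Per the submitters' processing notes, FastQC, Trimmomatic, HISAT2 and StringTie were used with build mm10, with no version or role stated; a stranded mRNA kit was used, per the labels' protocols. The deposited gene counts are whole, unnormalized read numbers, per the file headers and values. The authors also deposited TPM values, which sum to 998462 (siControl) and 998120 (siBcat1).

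Counts were scaled by TMM factors (edgeR 4.0.16, R 4.3.3), 1.03 and 0.969; no test was run. Intervals are exact binomial (Clopper-Pearson) intervals of the siBcat1 share of both counts, and those of differences between 2 genes are exact conditional intervals of the odds ratio (scipy 1.17.1). Annotated lengths are medians over GENCODE M21 transcripts matched by RefSeq accession, found for 99.5% of measured genes; implied lengths come from the ratio of counts to TPM. Curves are lowess (fraction 0.3, 3 iterations, statsmodels 0.14.6); a member under the minimum was read off the curve at its length. All 36 members, Bcat1 and the 2 genes of largest difference in each other list were named. Some further genes of these lists were named after their values were seen. The members and lists were chosen with earlier results of these data known. Alternatives were DESeq2 1.42.0 size factors, upper-quartile factors, library totals, TPM with pseudocounts of 1 and 0.1, minimum CPM of 1, 20 or none (prior count 0.5), removal of length or length and GC trends, a 2-fold threshold, whole intervals past 1.5-fold, and the mean. Counts were also simulated for 9887 genes, of which 200 were changed by at least 2-fold. Without a length trend 95.6% of intervals held the true fold, and with one 95.0%. All changed genes had the right direction. These counts held counting error only, with no PCR copies and no spread between cultures. The simulation therefore checks the calculation and cannot show how well the intervals cover in real libraries.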

Additional observations from a re-analysis of the deposited data

How the results depend on the processing

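No paired analysis was possible because each group has 1 library, and no library could be left out. The median log2 fold of the members, -0.40, was -0.28 with upper-quartile factors, -0.74 with log2(TPM + 1), -0.88 with log2(TPM + 0.1), -0.18 with the annotated length trend removed, -0.27 with the implied length trend removed and -0.14 with length and GC trends removed. At a minimum of 20 CPM, where 18 members remained, it had the opposite sign, 0.067, and 7 members were lower. The count of 15 lower members was 9 with the annotated length trend removed, 9 with length and GC trends removed and 9 at 2-fold. The count of 2 higher members was 0 with log2(TPM + 1) and 0 with log2(TPM + 0.1), and 1 with the annotated length trend, the implied length trend, or length and GC trends removed and 1 at 2-fold. Rictor changed sign with the annotated length trend removed (0.45), with the implied length trend removed (0.45) and with length and GC trends removed (0.22). Upper-quartile factors shifted the median of all genes by 0.13 and log2(TPM + 1) by -0.46, so the sign of a small fold depends on the scaling; the share of all genes lower was 46.5% and higher 3.56% with log2(TPM + 1), and 20.7% and 23.3% with upper-quartile factors. Depth limits Rragb and Rragd.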
